A study of Saccharomyces cerevisiae with 5 samples.

Results

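The DNA repair and damage checkpoint genes of budding yeast were followed through exposure to copper sulfate. They are 49 genes listed by symbol for the photolyase, for excision and mismatch repair, for damage tolerance, for recombination and for the checkpoint, of 5379 genes with a probe on the array. A probe was matched to 45 of the 49, and 36 had a value on all 3 arrays and were tested. RAD30, SGS1, MEC1 and TEL1 were matched to no probe and were not analysed here.

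Cells of strain S288C grew at 25 °C in YPD medium (2% glucose, 2% polypeptone, 1% yeast extract) to an optical density of 1. The treated group then received copper(II) sulfate at 10 mM for 2 h, and the control group grew for 2 h without it. Each of 3 arrays set Cy5-labelled cDNA of treated cells against Cy3-labelled cDNA of untreated cells, and the labels call these separate biological samples but do not give the number of control cultures. Values are log2 ratios, so that 1 is a 2-fold difference, and errors after ± are SDs over 3 arrays. The deposited values do not state their direction. Copper-treated over untreated is the likely one because the labels name the treated channel first, and it gives CUP1-1, the metallothionein gene that copper is known to induce, a mean of 4.33. Under the other direction every rise and fall below would exchange places. No dyes were swapped, so for any single gene a dye bias and an effect of copper cannot be told apart. Between 41.3% and 86.1% of spots held a value on each scan, and pairs of arrays correlated across genes with r from 0.606 to 0.693.

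As background, cells repair DNA by several routes. A photolyase reverses ultraviolet lesions with light, excision pathways cut out damaged bases or stretches, mismatch repair corrects replication errors, translesion polymerases copy past damage, and recombination rejoins broken ends. A kinase checkpoint led by Mec1 and Tel1 senses the damage, halts the cell cycle and, through Rad53 and Dun1, raises the transcription of ribonucleotide reductase and of several repair genes.

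A minority of the repair genes changed, more of them down than up. The median of the 36 tested members was -0.04, as was the median of all 4824 tested genes. With limma's moderated test and Benjamini-Hochberg adjustment over all genes at a threshold of 0.05, 8 members fell, 2 rose and 26 did not pass. A gene that did not pass is not shown to be without change. The 10 changed members were 27.8% of those tested, beside 23.5% of all genes. Falls made up 22.2% of members beside 12.0% of all genes, and rises 5.56% beside 11.5%. These shares rest on 8 and 2 genes, and their difference from the background has no test. The 8 genes that fell were PHR1, MAG1, RAD1, XRS2, REV7, RAD16, RAD3 and EXO1, and the 2 that rose were OGG1 and RAD50. The member medians were -0.05, -0.23 and -0.12 on replicates 1, 2 and 3, and those of all genes -0.03, -0.08 and -0.01.

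**Figure D1:**
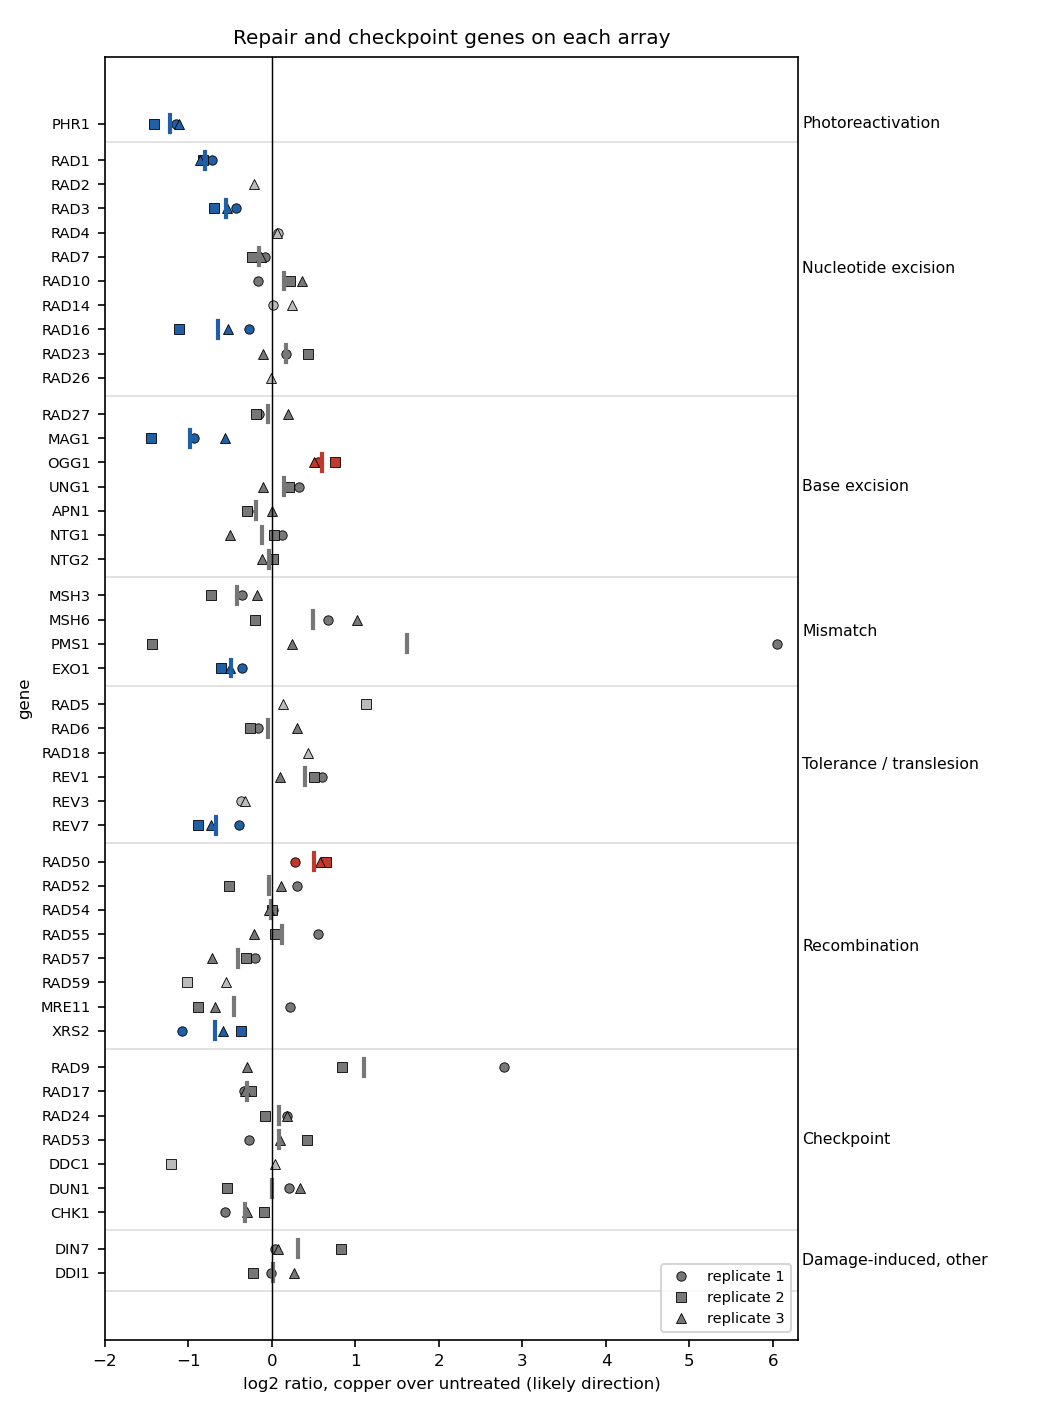
Log2 ratio (horizontal axis) of each of the 45 members with a probe (vertical axis, by pathway) on replicate 1 (circle), replicate 2 (square) and replicate 3 (triangle), with the mean of tested genes as a bar. Blue genes fell, red genes rose, dark grey genes did not pass the threshold and light grey genes were not tested. PHR1 lies below -1 on all 3 arrays, and PMS1 spans -1.43 to 6.05.

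**Figure D2:**
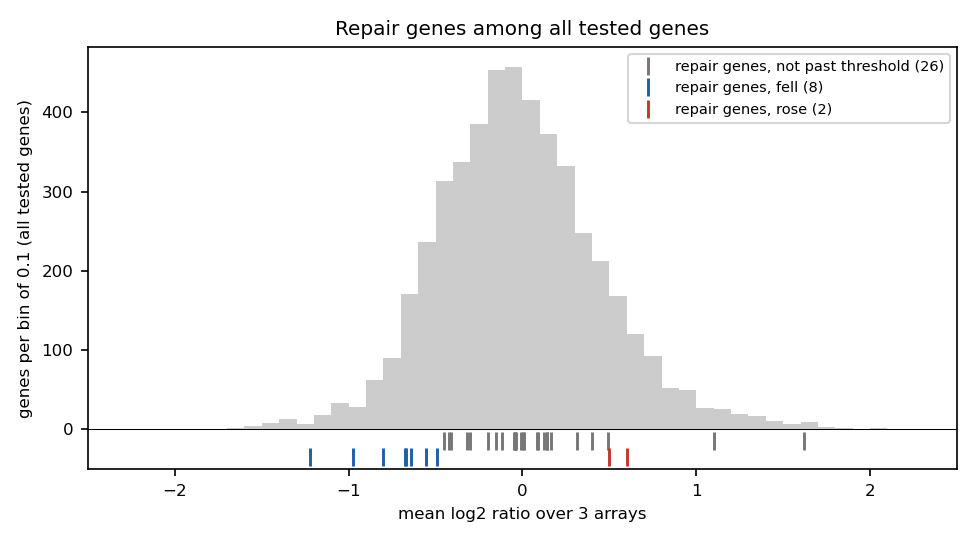
Histogram of the mean log2 ratio (horizontal axis) of 4824 tested genes in bins of 0.1 (vertical axis, genes per bin), with each tested member as a tick under it. The 8 falls reach from -1.23 to -0.49 and the 2 rises lie at 0.50 and 0.60. The 8 genes with means beyond 2.5 in either direction are outside the plot.

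The photolyase gene had the largest fall. PHR1 (YOR386W), which encodes the enzyme that splits pyrimidine dimers with light energy, read -1.15, -1.41 and -1.12 on replicates 1, 2 and 3. All 3 arrays lay below -1, with a spread far smaller than the change. The mean fell by 1.23 ± 0.16, or 2.34-fold lower (95% interval -1.56 to -0.89; limma adjusted p = 0.00226). PHR1 was the only changed member past 2-fold, and 116th of 4824 genes by size of mean change. Over 14 alternatives its adjusted p lay between 0.000102 and 0.0759. The highest was the single setting that lost it, a test against a minimum change of 1.5-fold, in which 53 of all genes passed.

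Of the 10 listed nucleotide excision repair genes, 6 were tested, 3 fell and 0 rose, with a median of -0.35. Over all genes 12.0% fell and 11.5% rose, and the 3 falls here rest on few genes, with the calls of RAD3 and RAD16 lost when an array was left out. This pathway cuts a damaged stretch out of a strand. RAD1 (YPL022W), a subunit of the nuclease that cuts on the 5′ side of the lesion, read -0.72, -0.83 and -0.86. The 3 values lay close together, and the mean fell by 0.80 ± 0.08 (limma adjusted p = 0.00933). RAD10 (YML095C), its nuclease partner, read -0.16, 0.22 and 0.36 and did not pass (0.14 ± 0.27, limma adjusted p = 0.551). RAD1 lay below RAD10 on 3 of 3 arrays, by 0.55 to 1.22. With 3 arrays an exact two-sided sign-flip test cannot go below 0.25, and this comparison gave 0.25. RAD10 overlaps the annotated gene YML096W, so its ratio may hold signal of both.

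RAD3 (YER171W), a helicase of the transcription factor TFIIH that opens DNA around the lesion, read -0.43, -0.70 and -0.54. All arrays were below 0, and the mean fell by 0.55 ± 0.13 (limma adjusted p = 0.0307). RAD16 (YBR114W), which with Rad7 recognises lesions in silent DNA, read -0.28, -1.12 and -0.53. Replicate 2 lay lowest, and the mean fell by 0.64 ± 0.43 (limma adjusted p = 0.0423). RAD7 (YJR052W), its partner, read -0.09, -0.23 and -0.14 and did not pass (limma adjusted p = 0.456). RAD16 was below RAD7 on 3 of 3 arrays, by 0.19 to 0.88 (exact sign-flip p = 0.25, the smallest possible).

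RAD23 (YEL037C), a partner of the lesion-binding protein Rad4, had a mean of 0.16 ± 0.27 and did not pass (95% interval -0.20 to 0.53). RAD4 itself read 0.07 and 0.06 on replicates 1 and 3 and RAD14, which binds damaged DNA, 0.02 and 0.24. RAD2, the nuclease of the 3′ side, and RAD26, which couples repair to transcription, held a value on replicate 3 alone, -0.22 and -0.02. None of these 4 was tested.

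The call of RAD1 was kept in 13 of 14 alternatives and lost with the minimum change of 1.5-fold. RAD3 passed with 3 arrays but not without replicate 1, 2 or 3 (adjusted p = 0.110, 0.104 and 0.0525). RAD16 lost its call in 6 of 14 alternatives, among them without replicate 2 (mean -0.40, adjusted p = 0.163), with array weights (adjusted p = 0.0512) and with ratios centred within groups of spots (adjusted p = 0.0612).

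Base excision repair held a fall and a smaller rise. All 7 listed genes were tested, 1 fell, 1 rose and the median was -0.05. The 2 changed genes were 28.6% of the 7, beside 23.5% of all genes. These enzymes remove single damaged bases, cut the bare sugar site and fill the gap. MAG1 (YER142C), the glycosylase for alkylated bases, read -0.93, -1.45 and -0.56. Every array was below -0.5, and the mean fell by 0.98 ± 0.45, or 1.97-fold lower (95% interval -1.41 to -0.54; limma adjusted p = 0.0128). OGG1 (YML060W), the glycosylase for oxidised guanine, read 0.55, 0.75 and 0.51. All 3 arrays were above 0.5, and OGG1 rose 1.52-fold (0.60 ± 0.13, 95% interval 0.27 to 0.94; limma adjusted p = 0.0235).

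The other 5 genes of this pathway stayed within 0.20 of 0 in the mean. APN1, the main nuclease for bare sites, had -0.20 ± 0.17. UNG1, the glycosylase for uracil, had 0.14 ± 0.22. NTG1 and NTG2, related glycosylases for oxidised pyrimidines, had -0.12 ± 0.33 and -0.03 ± 0.08. RAD27, the flap nuclease of long repair patches and of replication, had -0.05 ± 0.21. The widest of their 95% intervals, that of NTG1, ran from -0.51 to 0.27, so changes of that size are not excluded by these arrays. The call of MAG1 was kept in 13 of 14 alternatives and lost with the minimum change of 1.5-fold. OGG1 was also lost without replicate 1 (adjusted p = 0.104) and without replicate 2 (adjusted p = 0.0824), at means of 0.63 and 0.53.

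MAG1 and DDI1 are neighbours in the yeast annotation and, in earlier work, are transcribed away from each other from a shared promoter that DNA damage induces. Only MAG1 changed here. DDI1 (YER143W), a ubiquitin-binding protease-like protein, read -0.01, -0.22 and 0.26, on both sides of 0 (0.01 ± 0.24, 95% interval -0.35 to 0.37; limma adjusted p = 0.966). MAG1 lay below DDI1 on 3 of 3 arrays, by 0.92, 1.22 and 0.82 (exact sign-flip p = 0.25, the smallest possible). RPN4, the proteasome gene activator that also binds the MAG1 promoter in earlier work, had a mean of 0.16 ± 0.11 (limma adjusted p = 0.454). All gene pairs compared in this text were chosen after their values were seen. Of 13 pairs compared, 11 had a difference of the same sign on all 3 arrays, and 2 did not, MRE11 with XRS2 and NTG1 with NTG2. Because of how the pairs were chosen, this count does not measure how often partners differ. No share over other gene pairs was computed.

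Mismatch repair included the member with the largest spread between arrays, PMS1. Of 4 tested genes, 1 fell and 0 rose, with a median of 0.04. That is 25.0% changed, beside 23.5% of all genes. EXO1 (YOR033C), the exonuclease that removes the mismatched strand, read -0.36, -0.61 and -0.50. All arrays were below 0, and the mean fell by 0.49 ± 0.12 (limma adjusted p = 0.0436). This call sat close to the threshold. It was lost in 8 of 14 alternatives, among them without replicate 1, 2 or 3 (adjusted p = 0.161, 0.134 and 0.0838) and with each array centred on its median (adjusted p = 0.0538).

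MSH6 (YDR097C), which recognises base mismatches, read 0.67, -0.20 and 1.01. Replicate 2 opposed the other arrays, and the mean of 0.49 ± 0.63 did not pass (limma adjusted p = 0.144). Without replicate 2 its mean was 0.84 and its adjusted p 0.0283, but that array was picked out by its value, so this is no separate test. Without replicate 1 or 3 MSH6 did not pass (adjusted p = 0.337 and 0.484). MSH3 (YCR092C), which recognises larger loops, read -0.36, -0.73 and -0.18 (-0.42 ± 0.28, limma adjusted p = 0.0895). MSH6 lay above MSH3 on 3 of 3 arrays, by 0.52 to 1.20.

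PMS1 (YNL082W), which acts after mismatch recognition, read 6.05, -1.43 and 0.24. The value on replicate 1 was the highest of all 5019 genes with a value there, and the other arrays did not share it. The mean of 1.62 ± 3.93 had a 95% interval from -0.99 to 4.22 (limma adjusted p = 0.321), and without replicate 1 the mean was -0.60. PMS1 held no value on either low-power scan.

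In damage tolerance, 3 of 7 listed genes were tested, 1 fell and 0 rose. The 1 changed gene was 33.3% of the 3 tested, beside 23.5% of all genes. REV7 (YIL139C), a subunit of the translesion polymerase zeta, read -0.39, -0.89 and -0.73. All arrays were below 0, and the mean fell by 0.67 ± 0.25 (limma adjusted p = 0.0220). The low-power scan of replicate 3, which the submitters set aside for quality, gave REV7 0.05 where the high-power scan gave -0.73, the largest gap of the 22 members with both scans. REV7 was not past the threshold without replicate 2 (adjusted p = 0.0801) or with all 5 scans in the fit (mean -0.53, adjusted p = 0.163). REV3, the catalytic subunit of the same polymerase, read -0.37 and -0.32 on replicates 1 and 3 and was not tested.

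REV1 (YOR346W), which inserts cytosine opposite lesions and binds that polymerase, read 0.60, 0.50 and 0.10. All were above 0, but the mean of 0.40 ± 0.26 did not pass (limma adjusted p = 0.1002). RAD6 (YGL058W), the ubiquitin-conjugating enzyme that starts the pathway, had -0.04 ± 0.30. RAD18, its ligase partner, held 0.43 on replicate 3 alone. RAD5, a ligase and helicase, read 1.12 and 0.13 on replicates 2 and 3.

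Among recombination genes, 7 of 9 were tested, 1 rose, 1 fell and the median was -0.04. These 2 made up 28.6% of the tested genes, beside 23.5% of all genes. The change and its opposite lay in the same complex, that of Mre11, Rad50 and Xrs2, which binds and trims broken ends. RAD50 (YNL250W), its long tethering subunit, read 0.28, 0.64 and 0.58. All arrays were above 0, and RAD50 rose 1.41-fold (0.50 ± 0.20; limma adjusted p = 0.0467). XRS2 (YDR369C), the subunit that recruits the Tel1 kinase, read -1.08, -0.38 and -0.58. All were below 0, and the mean fell by 0.68 ± 0.36 (limma adjusted p = 0.0287).

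MRE11 (YMR224C), the nuclease of the complex, read 0.21, -0.89 and -0.68 (-0.45 ± 0.58, limma adjusted p = 0.162). Replicate 1 opposed the other arrays, and without it the mean was -0.78 (adjusted p = 0.0344). That array was picked out by its value, and all genes shared a single variance in that fit. Without replicate 2 or 3 MRE11 did not pass (adjusted p = 0.534 and 0.350). RAD50 lost its call in 7 of 14 alternatives, among them without replicate 1, 2 or 3 (means 0.61, 0.43 and 0.46, adjusted p = 0.115, 0.146 and 0.105). It was also lost with the high-power scan of replicate 2 alone (adjusted p = 0.0510) and with all 5 scans in the fit (adjusted p = 0.0519). XRS2 was not past the threshold without replicate 1 (mean -0.48, adjusted p = 0.242).

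None of the tested strand-exchange genes passed. RAD52 (YML032C), which loads the recombinase, had -0.04 ± 0.43. RAD54 (YGL163C), a motor protein of strand invasion, read 0.01, 0.0011 and -0.03, the smallest spread of any tested member (95% interval -0.33 to 0.32). RAD55 and RAD57, which form a complex that helps the recombinase, had 0.12 ± 0.39 and -0.41 ± 0.28 and did not pass (limma adjusted p = 0.646 and 0.0955). RAD59, a relative of Rad52, read -1.02 and -0.55 on replicates 2 and 3 and was not tested.

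No checkpoint gene passed the test. In limma 0 of 6 tested genes passed, 1 of them, RAD9, had an unadjusted p under 0.05, and the median was 0.04. Beside this, 23.5% of all 4824 tested genes passed and 1940 had an unadjusted p under 0.05. A count out of 6 genes is too small to set the checkpoint apart from that share. RAD53 (YPL153C), the central effector kinase, read -0.27, 0.42 and 0.10 (0.08 ± 0.34, 95% interval -0.31 to 0.48). DUN1 (YDL101C), the kinase that acts on ribonucleotide reductase control, read 0.20, -0.54 and 0.34 (0.0017 ± 0.47, 95% interval -0.45 to 0.45). Neither kinase gene kept its sign over the arrays.

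CHK1 (YBR274W), the kinase that holds back anaphase, read -0.57, -0.09 and -0.30 (-0.32 ± 0.24, limma adjusted p = 0.162). RAD17 (YOR368W), a subunit of the damage clamp, read -0.34, -0.25 and -0.32, close together but without passing (-0.30 ± 0.05, limma adjusted p = 0.146). RAD24 (YER173W), which loads that clamp, had 0.09 ± 0.15. DDC1, another clamp subunit, read -1.20 and 0.03 on replicates 2 and 3 and was not tested.

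RAD9 (YDR217C), the adaptor that carries the signal to Rad53, read 2.77, 0.84 and -0.30. The arrays disagreed in sign and size, and replicate 1 placed RAD9 sixth from the top of its 5019 genes. The mean of 1.10 ± 1.55 did not pass (95% interval 0.03 to 2.18; limma adjusted p = 0.117). Without replicate 3, the array below 0, its mean was 1.81 and its adjusted p 0.00586, which is no separate test. Without replicate 1 or 2 its mean was 0.27 or 1.24 and did not pass (adjusted p = 0.558 and 0.166).

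DIN7 (YDR263C), a mitochondrial nuclease named for its induction by damage, read 0.04, 0.83 and 0.08 and did not pass (0.31 ± 0.45, limma adjusted p = 0.255). Earlier work describes 12 of the 49 members as induced by DNA damage (PHR1, RAD2, RAD6, RAD7, RAD16, RAD18, RAD23, RAD54, MAG1, DDI1, DIN7 and DUN1). Of these, 10 were tested, 3 fell and 0 rose, with a median of -0.03, beside 12.0% falls and 11.5% rises over all genes. At an unadjusted p under 0.05 the count was also 3, all of them falls, namely PHR1, RAD16 and MAG1. Of all 4824 tested genes, 1940 had an unadjusted p under 0.05. A transcript peak between G1 and S phase is described in earlier work for 7 members, RAD27, RAD53, MSH6, PMS1 and UNG1 and, also on the list before, RAD54 and DUN1. In limma 0 of these 7 passed, 0 had an unadjusted p under 0.05 and their median was 0.08. The shares over all genes were 23.5% past the threshold and, as above, 1940 of 4824 at an unadjusted p under 0.05. Both lists are small, and their difference from all genes was not tested.

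Other genes of the same pathways were drawn from a list of 93 that are not members, of which 76 were tested. Of these, 7 fell and 7 rose (18.4%, beside 23.5% of all genes), with a median of -0.04. TFB1, another TFIIH subunit, read -0.57, -0.56 and -1.03 (-0.72 ± 0.27, limma adjusted p = 0.0190) and was the only 1 of 13 further excision genes to change. MLH3, a mismatch repair gene, fell by 0.89 ± 0.46 (limma adjusted p = 0.0180), a call lost without replicate 2 (adjusted p = 0.0568). MMS2, the partner of the ubiquitin enzyme Ubc13 in damage tolerance, read 0.83, 1.34 and 0.60 and rose 1.90-fold (limma adjusted p = 0.0124).

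Both subunits of the Ku complex, which caps broken ends for joining, fell. YKU80 read -0.99, -1.13 and -0.77 (-0.96 ± 0.18, limma adjusted p = 0.00520), and all 3 arrays were below -0.7. YKU70 read -0.78, -0.98 and -0.16 (-0.64 ± 0.43, limma adjusted p = 0.0427), and was not past the threshold without replicate 1 or 2 (adjusted p = 0.150 and 0.156). NSE3, a subunit of the Smc5 and Smc6 complex, fell by 0.62 ± 0.02 (limma adjusted p = 0.0193). Its values on the 3 arrays had a smaller SD than any tested member. The call of NSE3 was lost without replicate 1 or 2 (adjusted p = 0.114 and 0.0559), at means of -0.61 and -0.63. Without replicate 1 all genes shared a single variance, so the SD of NSE3 itself did not enter that test. RDH54, a relative of RAD54, rose by 0.57 ± 0.30 (limma adjusted p = 0.0398), lost without replicate 1 or 3 (adjusted p = 0.287 and 0.0755). In total 3 of 25 further recombination and end-joining genes fell and 1 rose (12.0% and 4.0%, beside 12.0% and 11.5% of all genes).

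**Figure D3:**
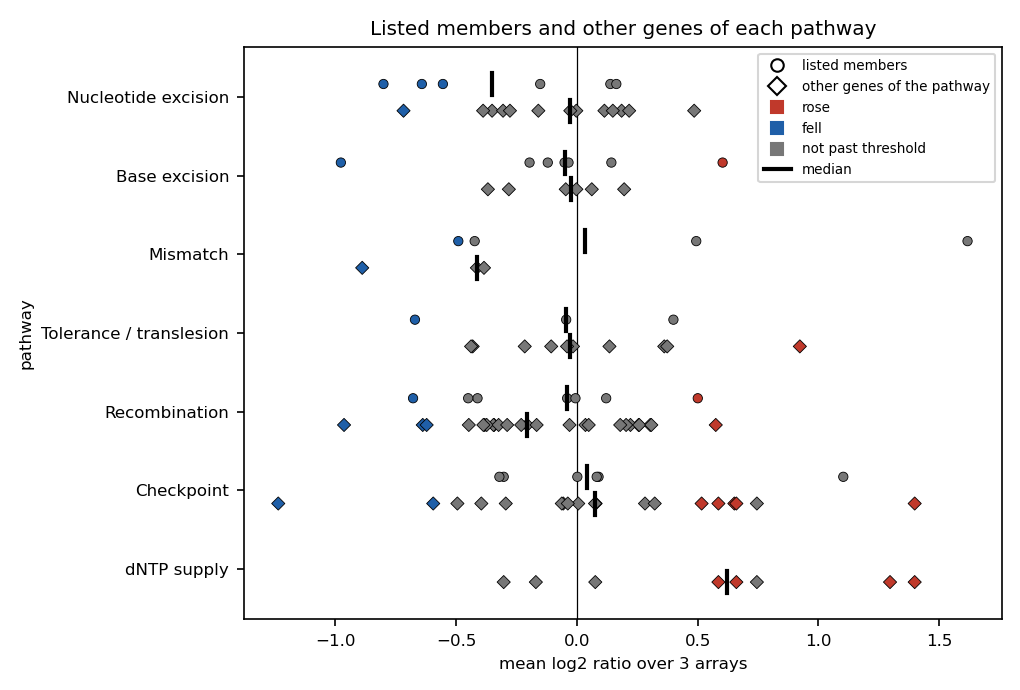
Mean log2 ratio over 3 arrays (horizontal axis) of tested members (circles) and other tested genes (diamonds) of each pathway (vertical axis), with medians as black bars and colour for genes that rose (red), fell (blue) or did not pass (grey). Listed nucleotide excision genes have a median of -0.35. The row for dNTP supply, which holds ribonucleotide reductase and its regulators, has a median of 0.62.

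Of 19 further checkpoint genes, 5 rose and 2 fell (26.3% and 10.5%, beside 11.5% and 12.0% of all genes). RTT101, a cullin of a ubiquitin ligase needed for replication through damage, read -1.21, -1.80 and -0.70 (-1.24 ± 0.55, limma adjusted p = 0.00808). ASF1, a histone chaperone that binds Rad53, rose by 0.65 ± 0.34 (limma adjusted p = 0.0310), a call lost without replicate 1 or 2 (adjusted p = 0.203 and 0.0945). The list of ribonucleotide reductase, which makes deoxynucleotides, and of its control gave 4 rises and 0 falls among 8 tested, with a median of 0.62. Of all genes 11.5% rose and 12.0% fell. Among the tested subunits of the enzyme RNR1 rose, and RNR2 and RNR4 lay below 0 on all 3 arrays without passing. The other rises were those of the regulators SML1, DIF1 and HUG1. SML1, DIF1, HUG1 and RFX1 are on both lists. With ratios corrected for gene length, HUG1 went to -0.0089 (adjusted p = 0.970) and DIF1 to 0.44 (adjusted p = 0.0623), so that neither passed.

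RNR1, the large subunit, read 1.03, 1.05 and 1.81 and rose 2.46-fold (limma adjusted p = 0.00420). SML1, the inhibitor of the enzyme, read 1.42, 1.43 and 1.35, and rose 2.64-fold (1.398 ± 0.05, limma adjusted p = 0.00152). DIF1, which carries small subunits into the nucleus, rose by 0.66 ± 0.15 (limma adjusted p = 0.0186), a call lost without replicate 1 (adjusted p = 0.140). HUG1, a small gene beside SML1 that the checkpoint induces, rose by 0.59 ± 0.22 (limma adjusted p = 0.0311), lost without replicate 1 or 2 (adjusted p = 0.180 and 0.105).

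The other tested genes of this group did not pass. RNR2 and RNR4, the small subunits, had -0.17 ± 0.11 and -0.30 ± 0.04 (limma adjusted p = 0.411 and 0.146). RNR3, the damage-induced large subunit, held 0.72 and 0.32 on replicates 1 and 3 and was not tested. RFX1, the repressor of these genes, read 0.27, 1.72 and 0.25 (limma adjusted p = 0.0856), and WTM1, which anchors small subunits, had 0.08 ± 0.52.

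Gene length moved with the ratios. Members are long, with a median of 1698 bases for those with a probe beside 1230 for all genes, and over the series longer genes had lower ratios. In the longest of 4 length classes of near-equal size (1863 bases and more), 12.2% of 1204 genes fell and 5.73% rose. In the shortest class (up to 798 bases), 8.98% of 1214 genes fell and 20.2% rose. The longest class held 15 of the 36 tested members, with 5 falls and 1 rise. The member median there was -0.0060, above those of the shorter classes, which lay between -0.096 and -0.043. With ratios corrected for gene length, 6 members fell and 2 rose, and the member median was 0.01 beside -0.02 for all genes. Changed members were then 22.2% of those tested, beside 22.8% of all genes. Over all genes 10.9% fell and 11.9% rose in that setting. RAD16 and EXO1 were then not past the threshold (adjusted p = 0.0536 and 0.0702), PHR1, MAG1, RAD1, XRS2, REV7, RAD3, OGG1 and RAD50 were.

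**Figure D4:**
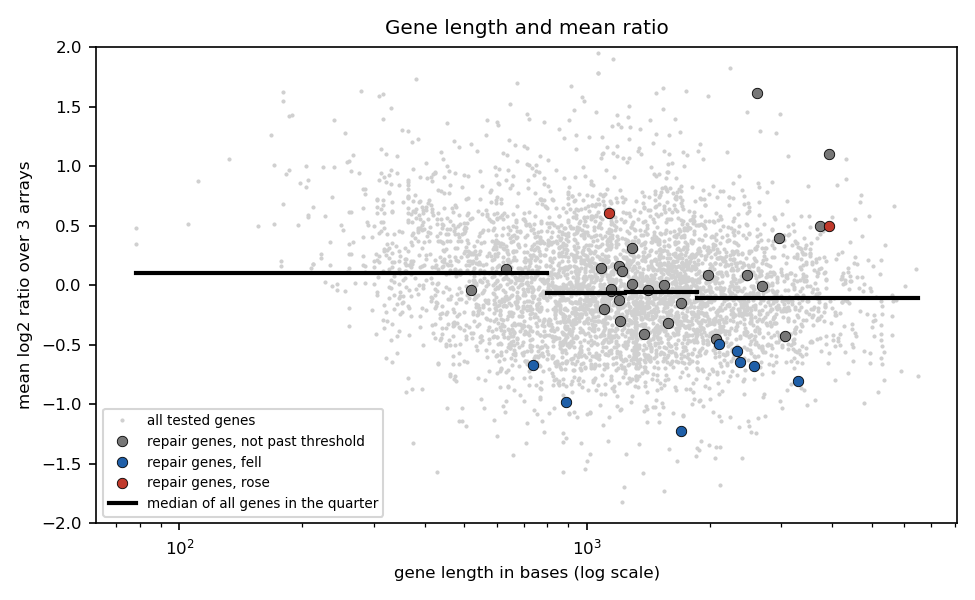
Gene length in bases (horizontal axis, log scale) against the mean log2 ratio over 3 arrays (vertical axis) of all tested genes (light grey) and tested members (dark grey, blue for falls, red for rises), with the median of all genes in each of 4 length classes as black bars. Of the 8 falls, 5 lie in the longest class. The 14 genes with means beyond 2 in either direction are outside the plot.

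Members also held fewer values than other genes. On the low-power scan of replicate 2, 17.8% of members with a probe held a value beside 50.8% of all genes, and on that of replicate 3, 48.9% beside 76.2%. On the high-power scans the shares were 86.7% beside 91.2% for replicate 2 and, for replicate 3, 45 of 45 members beside 99.3% of all genes. Of the 36 tested members, 15 held no value on either low-power scan, among them PHR1, MAG1, OGG1, RAD50 and XRS2. Both scans of replicate 2 were held by 8 members and differed by a median of 0.13, beside 0.12 over all genes, and 2 of the 8 had opposite signs. Those of replicate 3 were held by 22 and differed by 0.27, beside 0.15 over all genes, and 8 of the 22 had opposite signs. The share of opposite signs over all genes was not computed, so these counts have no background. The number of arrays limits the precision of every value here.

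**Figure D5:**
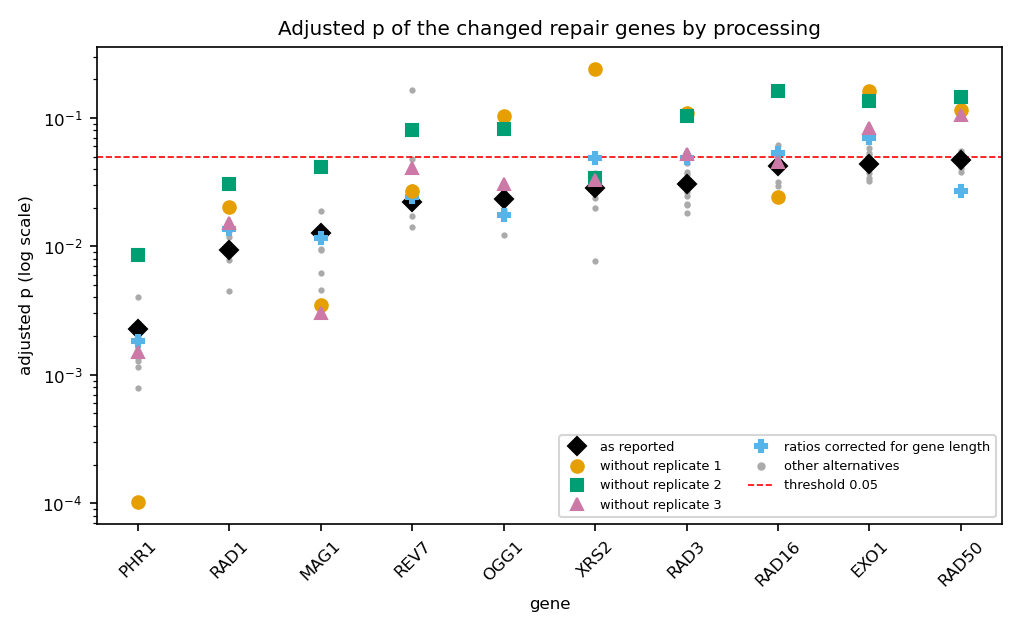
Adjusted p (vertical axis, log scale) of the 10 changed members (horizontal axis) as reported, without each replicate, with the correction for gene length and under other alternatives, with the threshold of 0.05 as a dashed line. The test against a minimum change of 1.5-fold is left out of the plot. PHR1, RAD1 and MAG1 stay below the line in all settings shown, whereas RAD3, EXO1 and RAD50 are above it whichever replicate is left out.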

How the data were processed

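The deposited table holds log2 ratios of 5 scans of 3 arrays. Per the labels, the authors applied LOWESS to spots flagged 0. The base of the logarithm follows from the values, whose lowest, -6.64, is the log2 of 0.01. Column medians lay between -0.025 and -0.0017. On scanner, image software, background treatment and probe strand nothing is given in the sources used here. Replicate 1 is a single scan, replicate 2 averages the high-power and low-power scan of a spot where both exist and otherwise takes the 1 present, and replicate 3 its high-power scan, since the submitters set the other aside. Of 6912 spots, 5446 had 1 gene symbol, 0 several and 1466 none in the platform annotation. All 5446 were found in the RefSeq gene table (R64), which gave names, neighbours and gene lengths. Probes of a gene were averaged. The mean ratio of 4824 genes with 3 values was set against 0 in limma 3.58.1 under R 4.3.3 (lmFit, then eBayes), with two-sided p-values adjusted by Benjamini and Hochberg's method. Those p-values reflect only how far these arrays spread, which may in part be technical. The test was also tried on simulated data. All members are accounted for, and changed members, the largest of each pathway and changed genes of other lists (up to 4 a list) are named with values. Members, lists, this rule and the alternatives were chosen with earlier results of these data known. The 15 alternatives include a loess correction for gene length (span 0.4, degree 1), 8 groups of spots by the first digit of the probe number, and each replicate left out in turn.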

Additional observations from a re-analysis of the deposited data

How the results depend on the processing

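The direction of all 10 changed members was the same in every alternative that tested them, and 11 of the 26 others changed sign in at least 1. PHR1, RAD1 and MAG1 lost their calls only with the minimum change of 1.5-fold. Each of the other changed members also lost its call in at least 1 fit without a replicate. The 2 rises became 1 with the high-power scan of replicate 2 alone, with all 5 scans and a random array block, and with genes held by at least 2 arrays. With array weights there were 5 rises and 7 falls, 33.3% of members beside 33.5% of all genes. The low-power scan of replicate 2 alone tested 8 members and gave 0 rises and 1 fall. RAD3 was the only changed member with a value there, and it passed (adjusted p = 0.0183). OGG1, RAD50 and the other changed members could not be tested in that setting. A minimum change of 1.5-fold left 0 rises and 0 falls, and 53 of the 1134 genes called in the series. Without a replicate, rises ranged from 0 to 2, falls from 4 to 6, the member median from -0.14 (without replicate 3) to -0.034 (without replicate 2) and calls over all genes from 494 to 1211, with 578 without replicate 1, where all genes shared a single variance. REV1, MSH6, RAD9 and MRE11 passed in some alternatives. The cause of these changes was not tested. Each ratio already pairs the treated and control RNA of its array, so there was no fit without that pairing to set beside it.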
